A study of Mus musculus with 6 samples.

Results

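The Hox genes are homeodomain transcription factors that lie in 4 clusters, HoxA to HoxD, and the members described here are the genes of these clusters measured in fetal mouse humerus with and without targeting of Stat3. They were chosen by name alone, as every symbol made of Hox, a cluster letter and a paralogue number, which gave 31 of the 23930 amplicons in the deposited table. HoxA had 8 members, HoxB 9, HoxC 8 and HoxD 6. The annotation holds 39 such genes, and Hoxa2, Hoxa5, Hoxa11, Hoxb5, Hoxc10, Hoxd3, Hoxd10 and Hoxd11 were not analysed here. The 3 knockout samples had the genotype Prrx1Cre; Stat3C/C and are titled Stat3_KO. The 3 control samples had the genotype Stat3C/+, are titled WT, and so carried 1 copy of the Stat3C allele and no driver. The labels do not spell out the Stat3C allele. RNA came from the humerus shaft of E16.5 embryos in both groups, and the stated purpose was to find differentially expressed genes in long bone. Prrx1Cre is active in limb bud mesenchyme, the source of bone, cartilage, tendon and connective tissue of the limb, whereas muscle cells, vessels, blood and epidermis of the limb come from other sources.

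Hox genes give cells of the embryo their position along the head-to-tail axis and, in the limb, from shoulder to fingers. Genes at one end of each cluster act early and near the head, and genes at the other end act late and near the tail or the limb tip. In the mouse limb, the genes of paralogue groups 9 and 10 pattern the upper arm that holds the humerus, group 11 patterns the forearm and group 13 patterns the hand and foot. Connective tissue and skeletal cells of the limb keep a Hox pattern that reflects where they formed. STAT3 is a transcription factor activated by cytokine receptors.

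Each gene was read at 1 short amplicon by targeted sequencing, and values are RPM, the reads of an amplicon scaled to the total reads of its library. Depth was 9126493 to 11809106 reads in knockout libraries and 11640697 to 13376550 reads in control libraries, so that 1 read was worth 0.0748 to 0.110 RPM. An amplicon's yield depends on its primers as well as on the RNA, so levels of different genes are not on 1 scale and only the same amplicon was compared between groups. In bulk RNA, fewer cells of a type and less RNA per cell cannot be told apart. The Stat3 amplicon had 208, 201 and 170.1 RPM in knockout bone, against 212, 201 and 211 RPM in control bone, with a log2 fold change of -0.11 ± 0.08 (SE) that was not called (limma, adjusted p = 0.380). No source used here gives the amplicon's place in Stat3, so it checks nothing about the labels. Whether replicates were separate embryos is not stated, and p-values therefore measure only the spread among these libraries, which could be technical.

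The promoters of 4 members are shown because the results turn on them or because they hold the one match to a STAT motif. Each is the 250 bases just upstream of the gene start from RefSeq on GRCm38.p6, 5′ to 3′ on the gene's strand. Capitals mark a CCAAT box in Hoxa13 (chr6:52260881-52261130, minus strand), Hoxd13 (chr2:74667975-74668224, plus strand) and Hoxd8 (chr2:74704365-74704614, plus strand). In Hoxd4 (chr2:74721728-74721977, plus strand) they mark a match to TTCNNNGAA, the letters that STAT proteins bind. The gene positions given below are from GENCODE, which differs from RefSeq for 2 of these genes. GENCODE places Hoxd4 at 74711929 to 74729160, so this window lies inside that gene, and starts Hoxd13 at 74668310, past the end of its window.
Hoxa13: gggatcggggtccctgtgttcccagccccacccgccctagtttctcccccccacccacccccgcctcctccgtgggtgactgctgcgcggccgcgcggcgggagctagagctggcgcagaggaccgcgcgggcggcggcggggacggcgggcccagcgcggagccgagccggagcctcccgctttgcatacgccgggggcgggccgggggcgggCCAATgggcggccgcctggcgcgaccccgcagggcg
Hoxd13: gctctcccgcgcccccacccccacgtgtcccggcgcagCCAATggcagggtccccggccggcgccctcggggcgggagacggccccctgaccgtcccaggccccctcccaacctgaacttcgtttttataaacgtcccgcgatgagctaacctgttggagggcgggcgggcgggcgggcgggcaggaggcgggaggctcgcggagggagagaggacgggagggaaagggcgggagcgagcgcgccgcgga
Hoxd8: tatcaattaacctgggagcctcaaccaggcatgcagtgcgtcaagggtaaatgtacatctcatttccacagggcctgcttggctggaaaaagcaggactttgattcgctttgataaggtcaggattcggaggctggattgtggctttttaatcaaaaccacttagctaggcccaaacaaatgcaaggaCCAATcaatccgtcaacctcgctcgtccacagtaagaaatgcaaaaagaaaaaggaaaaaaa
Hoxd4: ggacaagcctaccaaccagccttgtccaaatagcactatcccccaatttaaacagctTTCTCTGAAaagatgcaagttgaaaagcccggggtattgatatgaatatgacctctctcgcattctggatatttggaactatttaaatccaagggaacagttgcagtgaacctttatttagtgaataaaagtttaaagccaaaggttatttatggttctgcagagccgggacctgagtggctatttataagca
Hoxa13 and Hoxd13 were the 2 members at a higher level in every knockout library than in any control library, and Hoxd8 was the most read member with lower values in every knockout library. Their promoters differed in base composition, with 80% G or C in Hoxa13 and 74.4% in Hoxd13, against 44.4% in Hoxd8 and 40.4% in Hoxd4. The median was 59.2% over the 17 promoters of the 16 members in the RefSeq table and 52.4% over all 32851 promoters.

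Motifs were searched on both strands of these windows. The STAT letters TTCNNNGAA were in 1 of the 17 member promoters, that of Hoxd4, and in 7.02% of all promoters. The Pbx and Hox letters TGATNNAT were in 2 member promoters, Hoxb1 and Hoxb8, and in 7.68% of all. CTCGTAAA, bound by the posterior Hox proteins, was in 1 member promoter, Hoxb8, and in 0.110% of all, and the related CCAATAAA was in none of the members and in 1.02% of all. CCAAT, which is part of CCAATAAA and was added after the sequences were seen, was in 10 member promoters and in 33.9% of all. A match describes the letters of the window and is not a measured binding site.

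No Hox gene passed the test for a difference between knockout and control humerus. Of the 31 members, 17 had a mean of at least 1 RPM and were tested, and 0 were called higher and 0 lower (limma on log2(RPM + 1), Benjamini-Hochberg over all 12846 amplicons tested, adjusted p under 0.05). Over all amplicons tested, 5.71% were called higher, 11.0% lower and 16.7% in either direction, which is 733 higher and 1409 lower. This split moved with the scaling, to 1044 higher and 928 lower with TMM, 1079 and 881 with median-of-ratios and 979 and 877 with quantile normalization. On recovered reads, where the model differs as well, it was 1052 and 922 with edgeR and 998 and 775 with DESeq2. Among amplicons with a mean of 1 to 10 RPM, where 12 of the tested members lie, 8.20% were called, and among those of at least 10 RPM, where 5 lie, 20.3% were called. The lowest adjusted p of a member was 0.0812 with limma and 0.0662 with edgeR's quasi-likelihood test on whole reads recovered from the RPM values. With DESeq2 it was 0.123, over the 16 members that received an adjusted p.

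**Figure D1:**
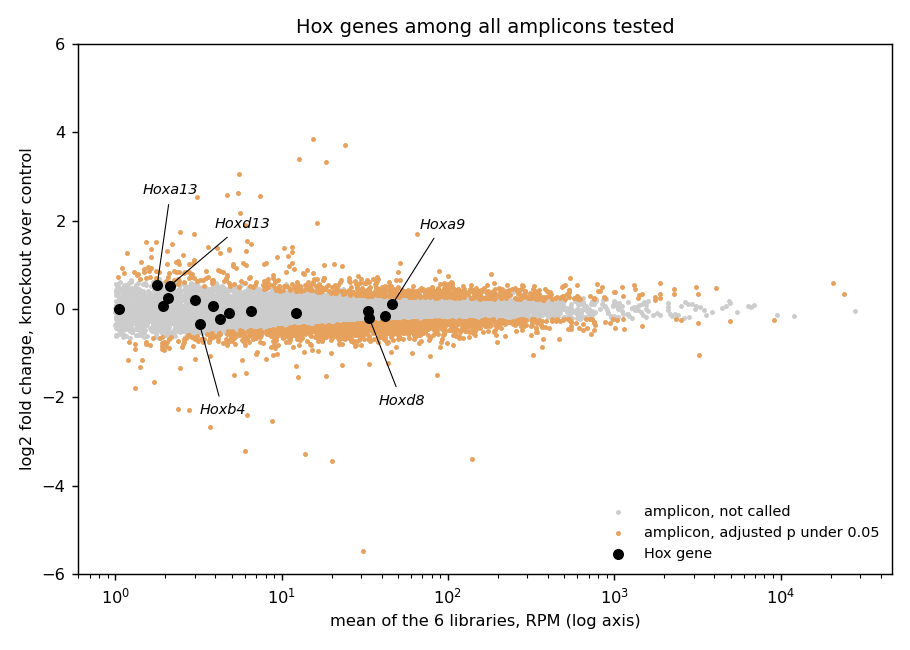
Log2 fold change, knockout over control, on the log2(RPM + 1) scale (vertical axis) against the mean of the 6 libraries in RPM (horizontal log axis) for the 12846 amplicons tested, with called amplicons in orange and 16 of the 17 Hox genes tested in black. These sit between -0.34 and 0.55 and none is among the called amplicons.

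The Hox genes' differences were small on both sides of 0. Their median log2 fold change was -0.04, beside -0.06 over all amplicons tested, with 7 members above 0 and 10 below. The range went from -0.34 for Hoxb4 to 0.55 for Hoxa13. The 95% interval of the difference held 0 for 15 of the 17 and lay within 2-fold either way for all 17, and within 1.5-fold for 10, on the log2(RPM + 1) scale, which understates the change of low genes. For Hoxa13 the upper end was 0.99975, barely under 2-fold, and its log2 fold change on recovered reads was 0.89 with edgeR and 0.91 with DESeq2. An unadjusted p under 0.05 was reached by 2 of 17 members, 11.8%, beside 31.3% of all amplicons tested. These 2 were Hoxa13 and Hoxd13, and edgeR and DESeq2 also gave 2 each. Knockout and control values did not overlap for 4 members, 23.5%, beside 33.8% of all amplicons tested. Hoxa13 and Hoxd13 lay above the controls, and 2 members, Hoxd8 among them, lay below. The 31.3% and 33.8% cover amplicons of every level, whereas 12 of the 17 members had a mean under 10 RPM, where fewer amplicons were called.

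**Figure D2:**
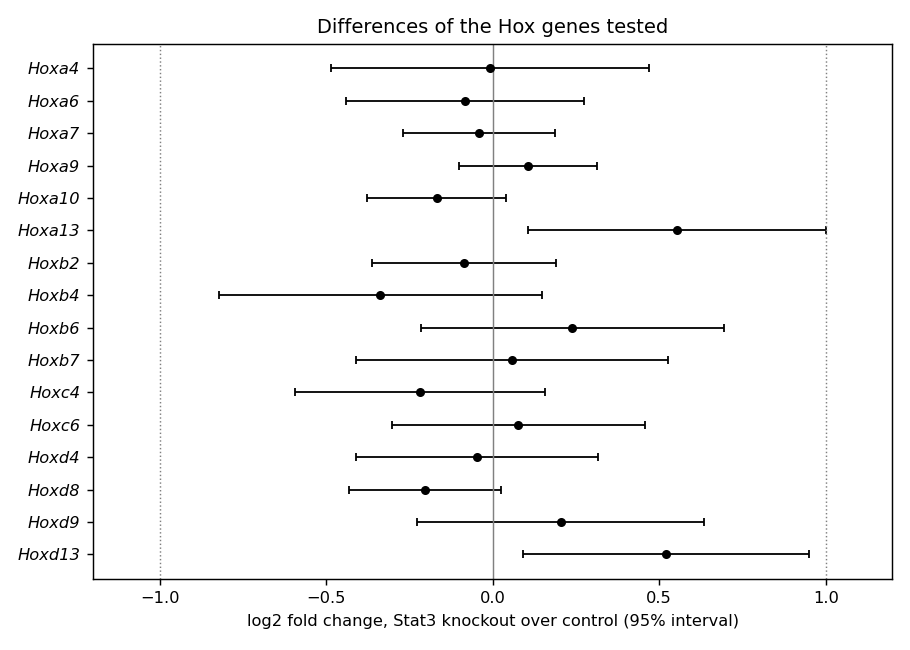
Log2 fold change, knockout over control, on the log2(RPM + 1) scale for 16 of the 17 Hox genes tested, each with its 95% interval from limma and dotted lines at 2-fold either way. The intervals of Hoxa13 and Hoxd13 lie above 0 and the other 14 shown hold 0.

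Of the paralogue group 9 and 10 genes, which pattern the upper arm, Hoxa9 and Hoxa10 each had over 10 RPM. Hoxa9 (gene on chromosome 6 from 52223100 to 52231089, GRCm38), needed in the mouse limb together with its paralogues and also a regulator of blood progenitors, had 52.5, 47.8 and 43.9 RPM in knockout bone and 44.3, 46.7 and 42.5 RPM in control bone. The ranges overlapped, with knockout replicate 1 the highest of the 6. The log2 fold change was 0.11 ± 0.10 (SE), with a 95% interval of -0.10 to 0.31 (limma, not called, adjusted p = 0.503). Hoxa10 (chromosome 6, 52231197 to 52240854), which patterns the upper limb bones and the uterus, had 36.2, 38.5 and 43.0 RPM in knockout bone, against 42.5, 45.0 and 44.8 RPM in control bone. Knockout replicate 3 lay inside the control range and the other two knockout libraries below it. Its log2 fold change was -0.17 ± 0.10, with an interval of -0.38 to 0.04 (limma, adjusted p = 0.267).

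Hoxd9, the HoxD gene of paralogue group 9, was read at a lower level, with 4.40, 2.41 and 3.17 RPM in knockout bone and 2.49, 3.36 and 2.30 RPM in control bone. The groups overlapped, and its log2 fold change was 0.20 ± 0.21 (limma, adjusted p = 0.543). Hoxb9 had a mean of 0.793 RPM and fell under the filter. Its knockout values of 0.423, 0.548 and 0.715 RPM, from 5, 5 and 7 reads, lay below the control values of 1.031, 0.972 and 1.068 RPM, from 12, 13 and 13 reads. In the fit with no filter its log2 fold change was -0.38 ± 0.14 (limma, not called, adjusted p = 0.124). Hoxc9, a gene of the thoracic body wall and spinal cord, had 0 reads in every library, which allows up to 0.224 to 0.329 RPM per library when 3 reads are taken as the limit of a count of 0. This limit covers counting error only.

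Hoxa7 (chromosome 6, 52214491 to 52221854), a gene of the trunk, had 36.7, 29.9 and 31.8 RPM in knockout bone and 36.7, 31.5 and 33.0 RPM in control bone. The groups overlapped almost fully, and the log2 fold change was -0.04 ± 0.11, with an interval of -0.27 to 0.19 (limma, adjusted p = 0.840). Hoxd8 (chromosome 2, 74704615 to 74707933) had 28.5, 32.1 and 32.9 RPM in knockout bone, against 40.6, 33.8 and 33.9 RPM in control bone. All 3 knockout values lay below all 3 control values, by a gap smaller than the spread within each group. The log2 fold change was -0.20 ± 0.11, with an interval of -0.43 to 0.02 (limma, not called, adjusted p = 0.210). Hoxb7 had 17, 24 and 19 reads in knockout bone and 18, 20 and 32 reads in control bone, with overlapping groups and a log2 fold change of 0.06 ± 0.23 (limma, adjusted p = 0.891). Hoxb8 had 5, 6 and 3 reads in knockout bone and 15, 8 and 8 in control bone, and Hoxc8, which acts in the ribs and in motor neurons of the forelimb, had at most 3 reads in any library. Both fell under the filter.

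**Figure D3:**
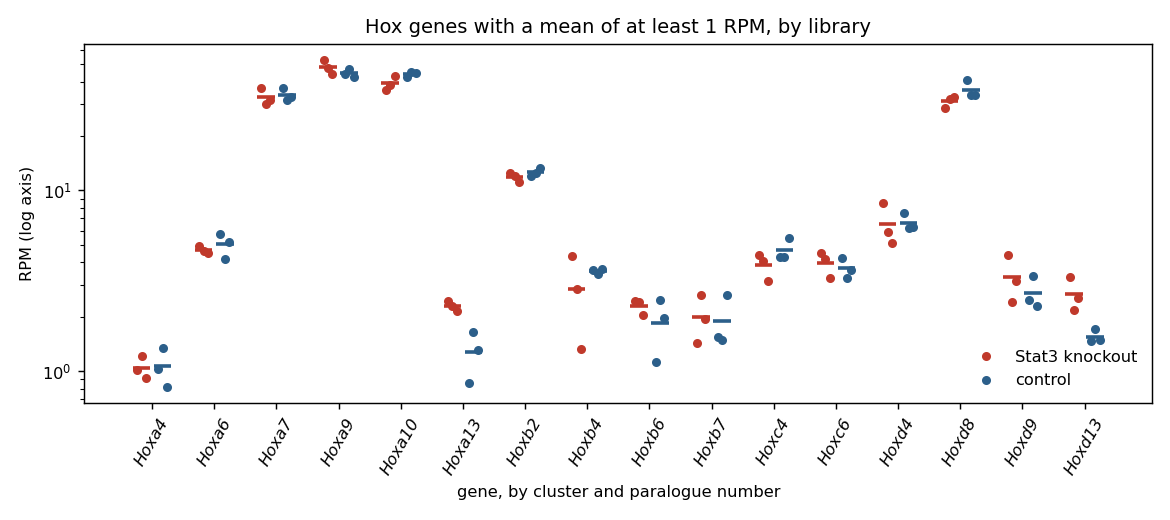
RPM in every library for 16 of the 17 Hox genes tested (log axis), with the 3 knockout and the 3 control libraries as separate points. Hoxa9, Hoxa10, Hoxd8, Hoxa7 and Hoxb2 lie above 10 RPM and the other 11 genes lie under it, and the groups overlap for 13 of the 16.

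The 2 paralogue group 13 genes that were tested, which pattern the hand and foot, had the highest log2 fold changes of all members. Hoxa13 (chromosome 6, 52257694 to 52260880) had 2.46, 2.30 and 2.15 RPM in knockout bone, from 29, 21 and 21 reads, against 0.859, 1.65 and 1.31 RPM in control bone, from 10, 22 and 16 reads. The log2 fold change was 0.55 ± 0.22, with an interval of 0.11 to 0.99975, an unadjusted p of 0.0177 and an adjusted p of 0.0812 (limma). Hoxd13 (chromosome 2, 74668310 to 74671599) had 3.30, 2.19 and 2.56 RPM in knockout bone, from 39, 20 and 25 reads, against 1.46, 1.72 and 1.48 RPM in control bone, from 17, 23 and 18 reads. Its log2 fold change was 0.52 ± 0.21, with an interval of 0.09 to 0.95, an unadjusted p of 0.0199 and an adjusted p of 0.0869 (limma). Neither passed the test. Over the alternatives run, the adjusted p was 0.0659 to 0.271 for Hoxa13 and 0.0662 to 0.265 for Hoxd13, and the log2 fold change was 0.13 to 0.91 and 0.13 to 0.86. Its size followed the pseudocount, with 0.13 for both genes at 10 RPM and 0.85 for Hoxa13 and 0.74 for Hoxd13 at 0.1 RPM.

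Both genes were read near the lower end of what the depth resolves. Summed over libraries, Hoxa13 had 71 reads in knockout bone and 48 in control bone, and Hoxd13 had 84 and 58, while knockout replicates 2 and 3, at 9126493 and 9784046 reads, were less deep than any control library. As a share of the Hoxa9 and Hoxa10 values of the same library, the summed Hoxa13 and Hoxd13 values were 6.50%, 5.21% and 5.40% in knockout bone and 2.67%, 3.67% and 3.20% in control bone. This share was chosen after the values were seen and compares different amplicons, so its level cannot be read. The Hoxa9 and Hoxa10 sum was 86.2 to 88.7 RPM in knockout libraries and 86.9 to 91.7 RPM in control libraries. The share therefore repeats the values of Hoxa13 and Hoxd13 and adds nothing to them. Hoxb13, a gene of the tail, skin and prostate, had 1 read in all, and Hoxc13, a gene of hair and nails, had 0 reads. Hoxd12, a gene of the limb tip, had 2 reads, Hoxc12 had 1 and Hoxc11 had 2.

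**Figure D4:**
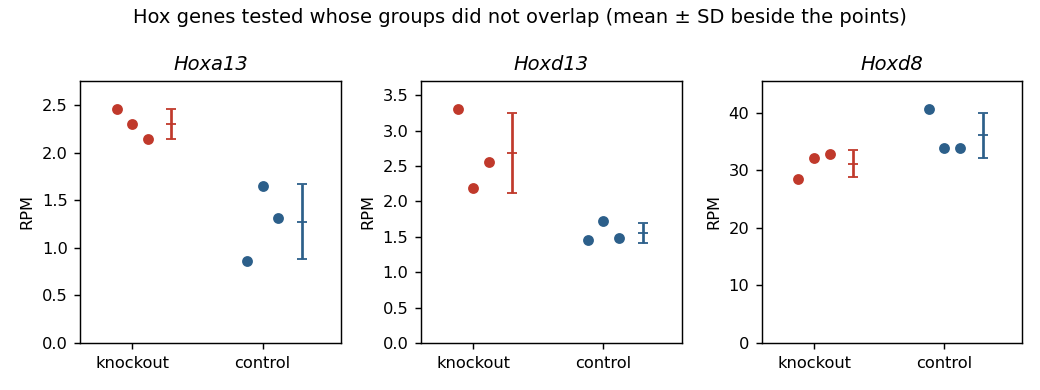
RPM per library, with mean ± SD beside the points, for 3 of the 4 Hox genes tested whose knockout and control values did not overlap. Hoxa13 and Hoxd13 are higher in every knockout library and Hoxd8 is lower, and none of these 3 passed the test.

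The genes of paralogue groups 1 to 6 act in the hindbrain, neck and upper trunk. Hoxb2 (chromosome 11, 96350525 to 96354012), which patterns hindbrain segments, had 147, 109 and 109 reads in knockout bone and 140, 168 and 162 reads in control bone, which is 11.8 ± 0.659 RPM and 12.6 ± 0.642 RPM (SD, n = 3 each). The RPM ranges overlapped, and the log2 fold change was -0.09 ± 0.13 (limma, adjusted p = 0.707). Hoxb1 had 0 reads in every library. Hoxd1 had 3, 3 and 1 reads in knockout bone and 13, 2 and 7 in control bone. Hoxb3 had 14 reads in knockout bone and 22 in control bone, and Hoxa3 had 4 and 1.

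All 4 genes of paralogue group 4 were tested. Hoxb4, known for expanding blood stem cells, had 4.32, 2.85 and 1.33 RPM in knockout bone, from 51, 26 and 13 reads, against 3.61, 3.44 and 3.70 RPM in control bone, from 42, 46 and 45 reads. The knockout values spread around the tight control values, with 8.18 times the variance that counting alone gives. Its log2 fold change of -0.34 ± 0.23 was not called (limma, adjusted p = 0.346). With each of the 6 libraries left out in turn, it lay between -0.61 and -0.02. Hoxd4 had 8.47, 5.92 and 5.11 RPM in knockout bone and 7.47, 6.21 and 6.24 RPM in control bone. It was the member with the STAT letters in its RefSeq promoter, and its log2 fold change was -0.05 ± 0.18, with an interval of -0.41 to 0.32 (limma, adjusted p = 0.886). Hoxc4 had a log2 fold change of -0.22 ± 0.18 (limma, adjusted p = 0.443) and Hoxa4 of -0.01 ± 0.23 (limma, adjusted p = 0.987).

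Paralogue group 6 was tested in 3 clusters and the groups overlapped in each. Hoxa6 averaged 4.67 ± 0.215 RPM in knockout bone and 5.04 ± 0.794 RPM in control bone, Hoxb6 averaged 2.30 ± 0.226 and 1.85 ± 0.683 RPM, and Hoxc6 averaged 3.97 ± 0.630 and 3.70 ± 0.467 RPM (SD, n = 3 each). Their adjusted p-values from limma were 0.789 for Hoxa6, 0.492 for Hoxb6 and 0.820 for Hoxc6. Hoxc5, the one group 5 gene measured, had 10 reads in each group. Of the 14 members under the filter, 3 had no read in any library and 6 had a read in every library. Just under the limit of 1 RPM were Hoxb9, Hoxb8 at 0.655 RPM and Hoxb3 at 0.520 RPM, and just above it was Hoxa4 at 1.06 RPM. Hoxa3, Hoxa4, Hoxa6, Hoxc5, Hoxc6, Hoxc8, Hoxc9 and Hoxd4 overlap another Hox gene on the same strand in the annotation. No source used here gives the amplicons' places, so reads of these 8 may belong to the overlapping gene.

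**Figure D5:**
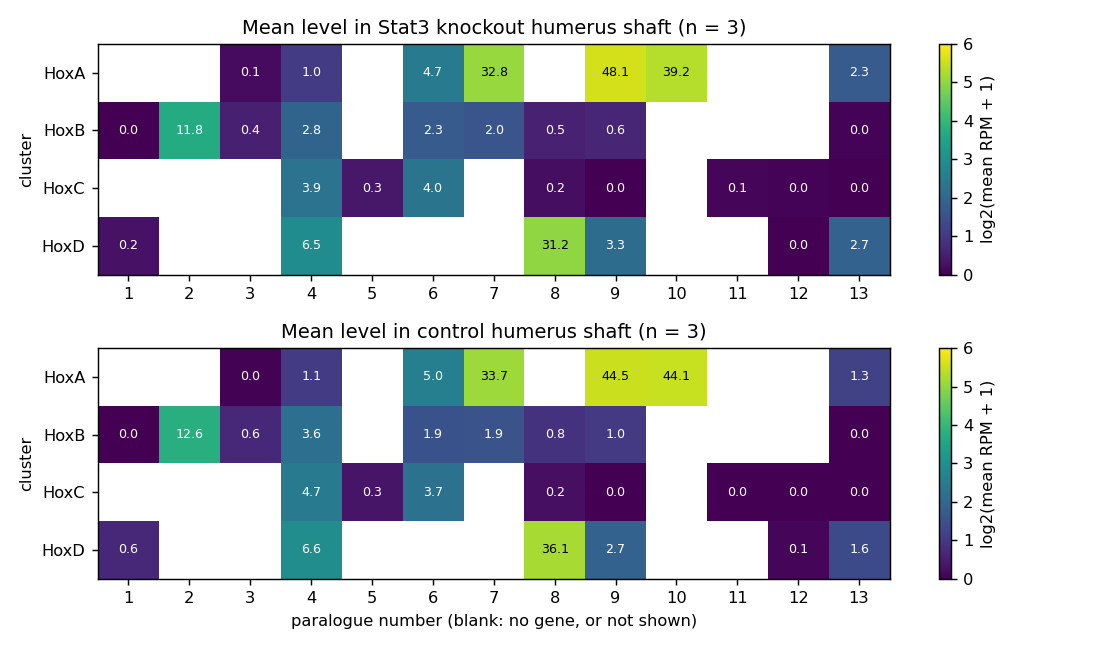
Mean RPM of 30 of the 31 measured Hox genes by cluster and paralogue number, in knockout bone (upper panel) and in control bone (lower panel), printed in each cell over a colour for log2(mean RPM + 1), with a blank where no gene exists or none is shown. In both groups the highest values stand at Hoxa7, Hoxa9, Hoxa10 and Hoxd8, and Hoxc11, Hoxc12 and Hoxd12, the measured genes of groups 11 and 12, are at or near 0.

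The sums by cluster add up different amplicons and lack the genes not analysed here, so they compare knockout with control bone over 1 fixed set of amplicons and do not rank the clusters. All measured Hox amplicons summed to 211, 199 and 196 RPM in knockout bone and 216, 207 and 207 RPM in control bone, with means of 202 ± 7.98 and 210.1 ± 5.24 RPM (SD, n = 3 each). HoxA made up 64.0% of this sum in knockout bone and 62.4% in control bone, HoxD 21.7% and 22.7%, HoxB 10.1% and 10.7%, and HoxC 4.18% and 4.20%. The 4 most read genes held 72.8% to 77.2% of the sum in knockout libraries and 74.5% to 76.0% in control libraries. The sums of 3 of the 13 paralogue groups, 8 and 13 among them, did not overlap between knockout and control bone. Of all single amplicons tested, 33.8% did not overlap. The group 13 sum was 5.02 ± 0.641 RPM in knockout bone and 2.83 ± 0.523 RPM in control bone, and group 8 summed to 31.8 ± 2.46 and 37.2 ± 4.35 RPM. Most of the group 8 sum was Hoxd8, at 31.2 RPM in knockout bone, and nearly all of the group 13 sum was Hoxa13 and Hoxd13. These sums therefore repeat genes given above, and they were not tested.

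Hox proteins bind DNA with TALE homeodomain partners, and 1 of the 7 tested was called, beside 16.7% of all amplicons tested. Over the alternatives, 0 to 3 of the list were called lower and 0 higher. Pbx3 was lower, at 13.9 ± 1.24 RPM in knockout bone and 19.0 ± 1.73 RPM in control bone (SD, n = 3 each, log2 fold change -0.43, limma, adjusted p = 0.0246). It was called under 9 of 16 alternatives, and not without control replicate 1 or 2 or knockout replicate 2 or 3. Pknox1 had a log2 fold change of -0.30 and was not called (limma, adjusted p = 0.0540). The median log2 fold change of the list was -0.18, beside -0.06 over all amplicons tested. Meis1 was not analysed here.

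Trithorax proteins keep Hox genes active and Polycomb proteins keep them silent. Of 13 Trithorax and H3K27 demethylase genes tested, 4 were lower and 0 higher, beside 11.0% lower and 5.71% higher of all amplicons, with a list median of -0.22. With TMM or median-of-ratios scaling, 2 were lower and 1 higher. Kdm6a, a demethylase that removes the Polycomb mark, averaged 26.3 ± 0.655 RPM in knockout bone and 39.2 ± 3.68 RPM in control bone (log2 fold change -0.56, limma, adjusted p = 0.00117). Kmt2b had a log2 fold change of -0.52 (limma, adjusted p = 0.00518), Kmt2a, the best known activator of Hox genes, of -0.34 (adjusted p = 0.0308), and Kmt2c of -0.31 (adjusted p = 0.0365). Kdm6a and Kmt2b were called under all 16 alternatives, and Kmt2a and Kmt2c under 5 each, not with TMM, edgeR or DESeq2. Of 21 Polycomb genes tested, 1 was higher and 2 lower, with a list median of -0.05. Pcgf6 averaged 15.2 ± 2.04 RPM in knockout bone and 10.1 ± 1.06 RPM in control bone (log2 fold change 0.55, limma, adjusted p = 0.0108). Pcgf2, among the lower genes, averaged 66.0 ± 5.20 RPM in knockout bone and 89.7 ± 6.01 RPM in control bone (-0.44, limma, adjusted p = 0.0024) and was called under all 16 alternatives. Pcgf6 was called under all but that without knockout replicate 2.

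Retinoic acid signalling turns on Hox genes at one end of the clusters. Of its 14 genes tested, 0 were called in either direction, beside 16.7% of all amplicons tested, with a list median of 0.02. With TMM, median-of-ratios, quantile normalization, edgeR or the replicate number as a block, or without control replicate 3, 1 was called higher. The aldehyde dehydrogenase Aldh1a2, which makes retinoic acid, had a log2 fold change of -0.34 (limma, adjusted p = 0.176), and Crabp1, which binds it in the cell, of 0.38 (limma, adjusted p = 0.0702). Of 4 other upstream regulators tested, among them Gdf11, Zbtb16 and Gmnn, 0 were called, and their list median was -0.05. Cdx1, Cdx2 and Cdx4, which activate trunk Hox genes in the early embryo, had at most 2 reads in any library.

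Of 16 limb position genes tested, 1 was higher and 2 lower, beside 5.71% higher and 11.0% lower of all amplicons, with a list median of 0.01. The forelimb gene Tbx5 averaged 52.3 ± 4.81 RPM in knockout bone and 69.0 ± 13.9 RPM in control bone (log2 fold change -0.38, limma, adjusted p = 0.0331), with overlapping groups. Gli3, a Hedgehog pathway factor that limits finger number, averaged 57.6 ± 5.85 and 74.2 ± 7.53 RPM (-0.36, adjusted p = 0.0165). Tbx2 averaged 65.8 ± 5.26 and 49.3 ± 8.21 RPM (0.42, adjusted p = 0.0111). Of the 16 alternatives, Tbx5 was called under 7, and Gli3 and Tbx2 under 13 each. Leaving out control replicate 1 ended all 3 calls. The hindlimb genes Tbx4 (13.3 ± 2.63 RPM in knockout bone and 11.004 ± 0.799 RPM in control bone) and Pitx1 (38 reads in each group) did not pass the test. Of 6 tested genes described as Hox targets in limb or kidney, 1 was higher and 0 lower, with a list median of 0.02. Itga8, an integrin needed for kidney outgrowth, averaged 65.1 ± 6.02 RPM in knockout bone and 51.2 ± 0.947 RPM in control bone (0.34, adjusted p = 0.0175), and was called under 12 of 16 alternatives, not without control replicate 1 or 2 or knockout replicate 1 or 2.

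Of 20 genes tested that flank the clusters, 5 were called, 25%, beside 16.7% of all amplicons tested. Most of these genes had a mean of at least 10 RPM, where 20.3% of amplicons were called. With TMM, median-of-ratios, edgeR or DESeq2, only Skap2 and Nfe2l2 were called among them. Of 5 HoxA neighbours tested, Skap2 was higher, with a log2 fold change of 0.40 (limma, adjusted p = 0.0222), and Tax1bp1 lower, with -0.29 (adjusted p = 0.0344). Nfe2l1 was lower among 5 HoxB neighbours (-0.27, limma, adjusted p = 0.0191), Calcoco1 among 4 HoxC neighbours (-0.34, adjusted p = 0.0487) and Nfe2l2 among 6 HoxD neighbours (-0.41, adjusted p = 0.0186). Skap2 and Nfe2l2 were called under 12 of 16 alternatives, Nfe2l1 under 9, Tax1bp1 under 7 and Calcoco1 under 4, and each was lost without at least 2 of the 6 libraries in turn. The list medians were 0.03, -0.09, -0.10 and -0.08 from HoxA to HoxD. Evx1 and Evx2, the homeobox genes next to the group 13 ends of HoxA and HoxD, had 4 reads and 1 read over all libraries.

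Of the cell type markers tested, 10 were called higher and 22 lower, both larger shares than the 5.71% higher and 11.0% lower of all amplicons tested. These lists were chosen with earlier results of the data known. The tissue label was checked against these markers. Each list held 3 to 8 tested genes, so counts of 1 or 2 in a list cannot be compared closely with these shares. Osteoblast markers were read in every library, and 6 of 7 tested were lower and 0 higher, with a summed level of 31776 to 36654 RPM in knockout libraries and 37079 to 40325 RPM in control libraries. Most of this sum was Col1a1, the marker that was not called, so it does not give the level of the lower markers. Of 7 chondrocyte markers 4 were lower and 0 higher (346 to 386 and 436 to 460.1 RPM). With TMM, median-of-ratios, quantile normalization, edgeR or DESeq2, 2 chondrocyte markers were lower. Of 8 perichondrium and fibroblast markers 1 was higher and 3 lower (9892 to 10295 and 7962 to 8839 RPM), and of 5 tendon and joint markers 2 were higher and 0 lower (3102 to 3435 and 2313 to 2473 RPM). Of 8 muscle markers 3 were lower and 0 higher (5615 to 6205 and 6743 to 7266 RPM). Of 8 neutrophil and macrophage markers 3 were higher and 4 lower (307 to 320.1 and 233 to 268 RPM). Of these, Lyz2 averaged 230 ± 6.91 RPM in knockout bone and 134 ± 14.5 RPM in control bone and makes up most of the sum. The neutrophil genes Ngp, Ltf and S100a9 were lower, with log2 fold changes of -1.54, -1.49 and -1.27. Macrophage markers of the list were called in both directions, so the list does not divide into higher macrophage genes and lower neutrophil genes. Of 3 erythroid markers tested 1 was higher and 0 lower (73.5 to 77.5 and 58.9 to 68.0 RPM). Of 5 endothelial markers 0 were higher and 2 lower (609.5 to 648 and 609 to 656 RPM), and of 6 nerve markers 1 was higher and 0 lower (47.3 to 51.5 and 41.8 to 49.6 RPM). Of 3 epidermis markers tested, Lor and Krt1 were higher and 0 lower, and the summed level was 22.2 to 24.6 RPM in knockout libraries and 14.3 to 16.7 RPM in control libraries. The part of these shifts in the values of Hoxa13, Hoxd13 or any other Hox gene was not tested.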

How the data were processed

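Per the labels' protocols, Trizol RNA of humerus shaft was made into complementary DNA with a SuperScript VILO kit and sequenced through the Ion AmpliSeq panel for the mouse transcriptome. The authors deposited RPM values for 23930 amplicons in 6 libraries. The sources used here do not give the aligner, counter, strand handling or genome build. All values above 0 were whole multiples of 1 read (100% within 0.1 read), so depths and reads were recovered from them. In all, 27 symbols stored as dates were read back from amplicon names. Gene positions are from GENCODE M21 (GRCm38).

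Amplicons averaging 1 RPM or more were tested as log2(RPM + 1) with limma 3.58.1 in R 4.3.3 (empirical Bayes with a trend, two-sided, Benjamini-Hochberg over 12846 amplicons, threshold 0.05). Alternatives were other pseudocounts (0.1 and 10 RPM), filters and scalings, the replicate number as a block, each library left out, and edgeR 4.0.16 and DESeq2 1.42.0 on recovered reads. The procedure was tested on simulated data. Figures used matplotlib 3.10.9. Each library was kept as 1 replicate. Libraries of 1 group all differed from each other by more than counting noise (chi-square per degree of freedom 4.54 to 7.80). This does not tell separate embryos from separate libraries of 1 RNA. Members and gene lists were chosen with earlier results of these data known. By rule, values per library were given for members of at least 10 RPM or past the threshold, with up to 4 called genes per pathway list; values of other members and uncalled genes were picked after they were seen. Values of 1 member and of a few listed genes are not reported here, though counts and sums include them.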

Additional observations from a re-analysis of the deposited data

How the results depend on the processing

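The count of Hox genes called was 0 in each direction under all 16 alternatives, and the lowest adjusted p of any member in any of them was 0.0659. The median log2 fold change of the members, -0.04, changed sign with the scaling. It was 0.014 with TMM, 0.019 with median-of-ratios, 0.032 with quantile normalization, 0.021 with edgeR and 0.028 with DESeq2. With each library left out it was -0.11 to 0.037. These moves were smaller than 0.16, the SD between libraries of a group in the members' median level, which is not a spread of fold changes. Of 17 members, 12 kept their sign in every setting run, and 5 with values near 0 changed it. Hoxa7, Hoxa4 and Hoxd4 gave log2 fold changes of 0.014, 0.021 and 0.00096 with TMM, 0.019, 0.024 and 0.0059 with median-of-ratios, 0.021, 0.015 and 0.042 with edgeR, 0.026, 0.028 and 0.042 with DESeq2, and 0.040, 0.0065 and 0.032 with quantile normalization. Leaving out each library gave -0.087 to 0.23 for Hoxb7, -0.12 to 0.020 for Hoxa7, -0.23 to 0.087 for Hoxd4, -0.19 to 0.0022 for Hoxa6 and -0.095 to 0.037 for Hoxa4. These changes of sign were all within 1 SE of 0, and the cause was not tested.

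Over all amplicons the count of lower calls, 1409, was 869 with no filter, 928 with TMM, 881 with median-of-ratios, 922 with edgeR, 775 with DESeq2 and 877 with quantile normalization. Leaving out each library gave 444 to 705 higher and 729 to 1314 lower. The cause of the moves with scaling was not tested. Fewer samples enter each fit that leaves out a library, and no filter adds low amplicons to the adjustment. Of all amplicons tested, 5.71% were called higher and 11.0% lower, and the number tested of each pathway list is given with that list. Over the pathway lists, 5 genes were higher and 13 lower, a check added after the values were seen. This became 8 and 7 with TMM, 8 and 7 with median-of-ratios, 8 and 8 with edgeR, 6 lower with quantile normalization, 5 lower with no filter and 5 lower with DESeq2, and 1 to 6 higher and 4 to 12 lower with each library left out. Cell type markers higher, 10, were 6 at a mean of at least 10 RPM, where fewer are tested, and 8 to 9 with each library left out. Those lower, 22, were 15 to 21 with each library left out. The replicate number as a block gave 836 higher and 1626 lower over all amplicons and 0 Hox genes in either direction. Same-numbered libraries of the 2 groups had correlations of deviations of 0.0126, -0.0193 and 0.107, so the numbers were not taken to pair the samples. Depth limits the members under 10 RPM, for which 1 read is 0.0748 to 0.110 RPM.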

Other observations

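Homeobox genes related to the Hox genes but outside the clusters included 2 that were tested. Meox1, which acts in somites and their derivatives, was higher, with 125.1, 128 and 117 RPM in knockout bone and 82.0, 88.6 and 91.5 RPM in control bone (log2 fold change 0.49 ± 0.08 SE, limma, adjusted p = 0.000361, higher in 3 of 3 knockout libraries than in any control library). Meox2 averaged 195 ± 21.5 RPM in knockout bone and 167 ± 17.4 RPM in control bone (SD, n = 3 each) and was not called (limma, adjusted p = 0.104). Gsx1, Gsx2, Pdx1, Mnx1 and Gbx1, which act in brain, spinal cord or pancreas, reached no more than 3 reads in a library.

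The 6 noncoding RNAs of the clusters with an amplicon were all under 1 RPM and not tested. Hotairm1 had 0.593, 0.986 and 0.613 RPM in knockout bone and 0.945, 1.047 and 1.15 RPM in control bone. Hoxaas2 had 0.508, 0.438 and 0.409 RPM in knockout bone, against 0.258, 0.374 and 0.329 RPM in control bone, from 14 and 12 reads. Hoxaas3, Hoxa11os, Hoxd3os1 and Haglr reached no more than 5 reads in a library.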
